A study of Mus musculus with 6 samples.

Results

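The genes described here are the 10 immediate early transcription factors of the AP-1, Egr and Myc families measured by RNA-seq in mouse mesenchymal stromal cells (MSCs): Fos, Fosb, Fosl1, Fosl2, Jun, Junb, Jund, Egr1, Atf3 and Myc. They were chosen by symbol, with earlier results of these data known. All 10 of the 10 passed the filter on low counts, among 11974 genes tested of 23420 in the count table. MSCs are adherent, non-hematopoietic cells grown here from the bone marrow of young adult female C57BL/6 mice. A retroviral AP2 construct carrying the eGFP marker was used to transduce polyclonal cultures, either empty (Ctl MSC, 3 libraries) or encoding the thymoproteasome subunits β1i, β2i and β5t joined by self-cleaving viral peptide sequences (MSC-TPr, 3 libraries). Both groups therefore shared the strain, the vector and the marker, and the cells received no other treatment that the labels name. The comparison asked what the thymoproteasome, a proteasome form normally made by cortical thymic epithelial cells, did to MSC gene expression. Nothing in the sources used here states whether the 3 libraries of a group came from separate cultures, so every p-value measures the spread between these libraries, which may be technical.

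Immediate early genes are transcribed within minutes of a growth factor, stress or adhesion signal from promoters that are already prepared, without new protein synthesis. Kinases of the MAPK cascades activate SRF with its ternary complex partners, CREB and ATF proteins at these promoters, and phosphatases and mRNA-destabilizing proteins then shut the response down. AP-1 is a dimer of basic leucine zipper proteins. Fos proteins cannot pair with each other and need a Jun partner, whereas Jun proteins can pair with Fos, Jun or ATF proteins, so the mixture of members present sets which dimers can form. Egr1 is a zinc finger factor of the same early wave, and Myc with its partner Max drives ribosome production and growth. In stromal cells these factors are known for their part in the responses to serum, wounding and detachment.

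The promoters are shown because this is where the signals that switch these genes on converge. RefSeq promoter windows (build GRCm38.p6, read 5′ to 3′ on the gene's strand) were found for 7 of the 10 members (Fos, Fosb, Fosl2, Jun, Junb, Jund and Atf3). The windows searched run from 250 bases before the annotated start to a short stretch after it. The 250 bases before the start are printed for 4 members. These are Fos and Fosb, each of which had the other as its nearest member by pattern, Fosl2, which shares a motif with Fosb, and Atf3, the member that varied most. Capitals mark a match to the Egr site GCGNGGGCG or to TGACG, the shorter core of the cAMP response element (CRE), on either strand. Fos lies at chr12:85473640-85473889 (+), Fosb at chr7:19310046-19310295 (-), Fosl2 at chr5:32136222-32136471 (+) and Atf3 at chr1:191183334-191183583 (-).
Fos: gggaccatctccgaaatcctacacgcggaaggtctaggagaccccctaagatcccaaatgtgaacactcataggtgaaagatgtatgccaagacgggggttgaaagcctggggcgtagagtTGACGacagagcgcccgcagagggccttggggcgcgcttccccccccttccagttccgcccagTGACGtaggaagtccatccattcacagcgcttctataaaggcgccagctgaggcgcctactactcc
Fosb: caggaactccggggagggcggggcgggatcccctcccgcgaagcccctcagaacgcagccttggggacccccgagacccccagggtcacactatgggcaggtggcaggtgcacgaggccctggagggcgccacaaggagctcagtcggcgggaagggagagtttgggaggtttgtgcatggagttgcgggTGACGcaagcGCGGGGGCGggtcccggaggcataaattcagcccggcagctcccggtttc
Fosl2: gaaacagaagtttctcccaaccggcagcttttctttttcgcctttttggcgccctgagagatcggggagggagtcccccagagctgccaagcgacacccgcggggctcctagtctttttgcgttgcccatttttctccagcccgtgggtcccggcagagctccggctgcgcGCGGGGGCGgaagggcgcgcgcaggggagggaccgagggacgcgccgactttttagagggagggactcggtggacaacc
Atf3: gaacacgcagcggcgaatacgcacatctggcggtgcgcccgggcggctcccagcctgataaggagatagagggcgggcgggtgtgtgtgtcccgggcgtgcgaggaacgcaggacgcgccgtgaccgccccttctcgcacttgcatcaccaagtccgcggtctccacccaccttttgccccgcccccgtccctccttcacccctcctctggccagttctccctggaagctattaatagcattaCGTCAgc

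Fos held the CRE core at -129 to -125 and at -66 to -62, counted from the start, Fosb at -60 to -56, and Atf3 at -7 to -3 on the opposite strand. Junb held it as well, which made 4 of the 7 windows, while 20.8% of all 32851 RefSeq windows hold it. The Egr site stood at -79 to -71 in Fosl2 and at -50 to -42 in Fosb, against 5.55% of all windows. The CRE core was added to the search after the sequences had been seen. The AP-1 site TGANTCA (7.81% of all windows), the full CRE TGACGTCA (1.79%), the E-box CACGTG (7.15%) and the CArG box bound by SRF (1.63%) had no match in these 7 windows. Sites farther from the start, and any in Egr1, Myc and Fosl1, were not searched, so this absence holds for these windows alone. The printed-length part of the Jund window ends at 70697738, before its gene model begins at 70698949, so it does not adjoin that model. The printed Fosl2 and Atf3 windows lie inside their gene models, which span 32135801 to 32157842 and 191170296 to 191218039. Their positions are therefore counted from a RefSeq start within the model, not from its outer end.

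The libraries held 16158756 to 22158887 reads on genes, so that 3 reads corresponded to 0.139 to 0.181 CPM (read counts scaled to library size with TMM factors), and the least counted member, Fosb, still had 79 reads in its lowest library. Most of the variation among libraries did not follow the labels. The first principal component, with 58.5% of the variance, placed Ctl MSC 1 beside MSC-TPr 2 and MSC-TPr 3, and MSC-TPr 1 beside Ctl MSC 2 and Ctl MSC 3, while the second, with 28.2%, ordered all 6 libraries by label. Averaged over 20 cell division genes, the log2 CPM split the libraries like the first component, at 6.56 in Ctl MSC 1, 6.45 in MSC-TPr 2 and 6.50 in MSC-TPr 3 against 3.18 to 3.23 in the other three. The transduced genes did not tell the labels apart: Psmb9, Psmb10 and Psmb11 (β1i, β2i and β5t) had summed levels of 9.32 to 31.3 CPM under the Ctl MSC label and 9.74 to 18.9 CPM under the MSC-TPr label. Psmb10 made up most of these sums, and Psmb11 was at 0.121, 0.214 and 0.110 CPM against 0.221, 0.355 and 0.0464 CPM, a few reads in any library. Whether the labels of Ctl MSC 1 and MSC-TPr 1 hold was not tested. Each comparison is therefore between libraries by their labels, and member values are also given without these 2 libraries. Of 12 MSC markers 11 passed the filter, with a summed level of 3480 to 9570 CPM in Ctl MSC and 2220 to 14500 in MSC-TPr, but Thy1 had at most 1 read in any library. The 11 blood cell markers in the table summed to 12.1 to 15.0 CPM in Ctl MSC and 13.1 to 17.9 in MSC-TPr. Cd14, at 3.27 to 13.2 CPM over the libraries, and Cd68, at 0.789 to 14.2 CPM, made up most of these sums, while Laptm5 and Cd3e were at 0 throughout. The 6 endothelial markers summed to 1.27 to 6.20 and 2.41 to 24.7 CPM, the highest from Vwf at 21.4 in MSC-TPr 1. In bulk RNA, fewer cells of a type and less RNA per cell cannot be told apart.

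Over all 6 libraries none of the 10 factors passed the test for a difference between Ctl MSC and MSC-TPr. The test was edgeR's quasi-likelihood test with Benjamini-Hochberg adjustment over all genes tested, and a call needed an adjusted p under 0.05 with a log2 fold change of at least 0.5 either way. The rule called 0.426% of all genes (51 of 11974), with 0.0251% higher and 0.401% lower in MSC-TPr. Fos, Fosl1 and Fosl2, 3 of the 10 members, had an unadjusted p under 0.05, as had 15.0% of all genes. The DESeq2 Wald test called 4.06% of its genes (1.45% higher, 2.61% lower) and again none of the members. Of its 16807 genes, 3873 had no adjusted p and could not be called. The values of the groups did not overlap for 5 members: Fos and Fosl2 were lower and Fosl1, Junb and Myc higher in every MSC-TPr library, whereas 22.6% of all genes were separated (10.6% higher, 12.1% lower). Signs were balanced, with 5 positive and 5 negative log2 fold changes, a member median of 0.09 and a median over all genes of 0.01.

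**Figure D1:**
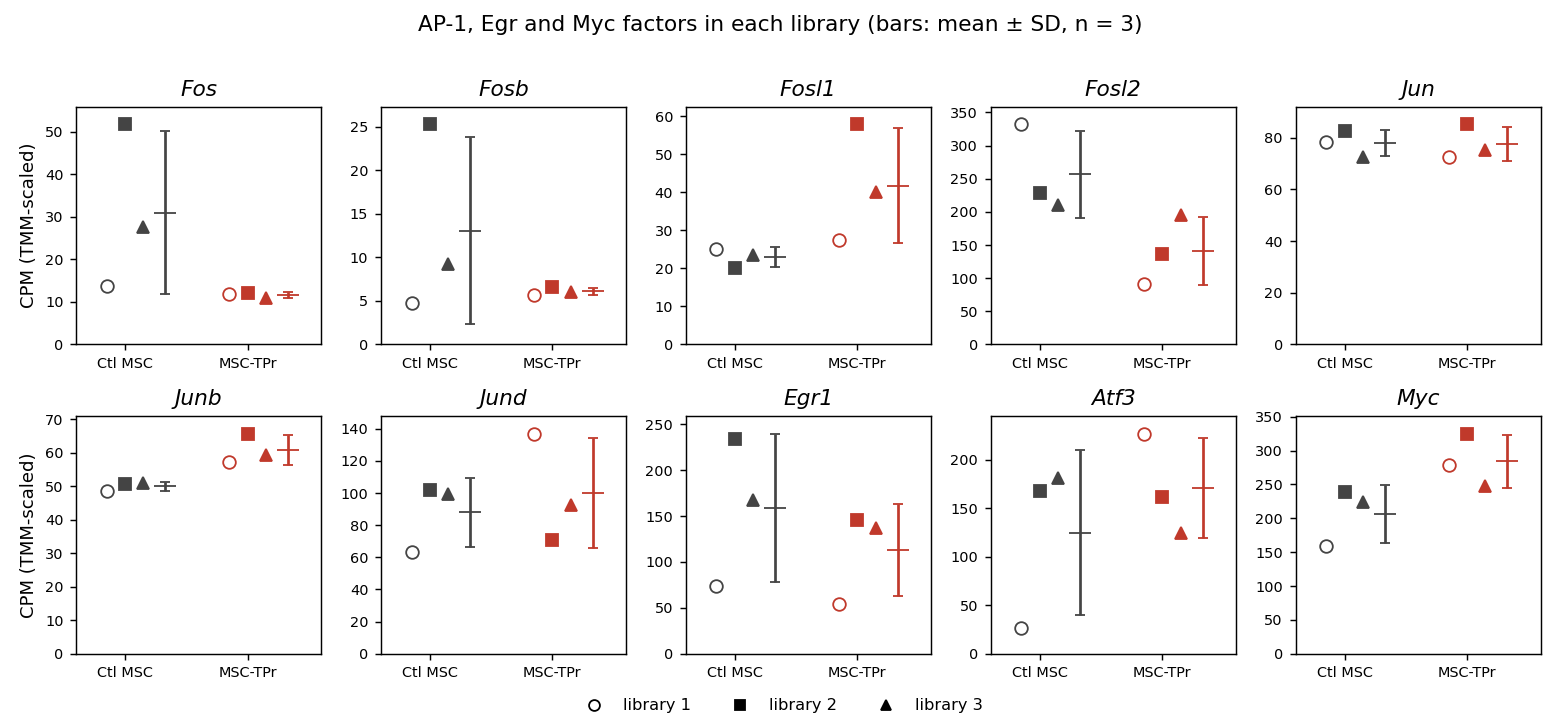
Each panel plots 1 gene as TMM-scaled CPM (linear axis from 0) in the 3 Ctl MSC (grey) and 3 MSC-TPr (red) libraries, with the marker shape giving the library number and the bars mean ± SD. Fos and Fosb are high in Ctl MSC 2, Jun and Junb hardly vary, and Atf3 stands at 26.6 CPM in Ctl MSC 1 against 125 to 227 elsewhere.

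Without Ctl MSC 1 and MSC-TPr 1, the remaining 4 libraries gave 3 calls among the 10 members: Fos and Fosb fell and Fosl1 rose in MSC-TPr. In that comparison 40.0% of all genes were called (4854 of 12122; 20.6% higher and 19.4% lower), and the cell division genes also differed between the labels, at 3.18 to 3.22 in Ctl MSC and 6.45 to 6.50 mean log2 CPM in MSC-TPr, so label and division level cannot be told apart in these 4 libraries. A share of 3 in 10 members was not above that background. The median log2 fold change was -0.29 over the members and -0.00 over all genes. DESeq2 on the same 4 libraries called these members and Egr1, where it called 27.9% of all genes. Of the 16379 genes behind that share, 3414 had no adjusted p and could not be called, unlike the members, so the share is low as a background.

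Fos (ENSMUSG00000021250.13, mm10 chromosome 12, 85473890 to 85477273, plus strand) encodes the short-lived AP-1 subunit that is the standard marker of the immediate early response. Its level was 13.8, 51.7 and 27.6 CPM for Ctl MSC 1, 2 and 3 versus 11.8, 12.1 and 10.8 CPM for MSC-TPr 1, 2 and 3. Every MSC-TPr library lay below every Ctl MSC library, by a wide margin for Ctl MSC 2 and 3 and a narrow one for Ctl MSC 1. The means were 31.0 ± 19.2 and 11.6 ± 0.699 CPM (SD, n = 3 each), and the log2 fold change of -1.42 (SE 0.459, 95% interval -2.52 to -0.33) had an adjusted p of 0.234 by edgeR. Without Ctl MSC 2 it was -0.84. Over the 4 libraries it was -1.80 (SE 0.303, edgeR adjusted p = 0.00546), and DESeq2 gave an adjusted p of 3.28e-09 there. The libraries numbered 1 differed by -0.22 on the log2 scale and those numbered 2 and 3 by -1.72.

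Fosb (ENSMUSG00000003545.3, chromosome 7, 19302696 to 19310051, minus strand), the closest relative of Fos, is induced by the same stimuli. It was measured at 4.77, 25.3 and 9.27 CPM for Ctl MSC versus 5.70, 6.57 and 6.03 CPM for MSC-TPr. Ctl MSC 2 and 3 stood above the MSC-TPr libraries and Ctl MSC 1 below them, so the groups overlapped. The log2 fold change was -1.10 (SE 0.581, edgeR adjusted p = 0.429), and it was -0.20 without Ctl MSC 2, the library with the highest Fos and Fosb. Fosb fell, over the 4 libraries, by 1.45 on the log2 scale (SE 0.454, edgeR adjusted p = 0.0422).

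Fosl1 (ENSMUSG00000024912.6, chromosome 19, 5447547 to 5455946, plus strand) encodes Fra-1, a Fos protein without the strong activation domain of Fos, which accumulates later under sustained MAPK signalling. It stood at 25.2, 20.2 and 23.5 CPM for Ctl MSC versus 27.5, 57.9 and 40.2 CPM for MSC-TPr. All MSC-TPr libraries were above all Ctl MSC libraries, MSC-TPr 1 by little. The means were 23.0 ± 2.55 and 41.8 ± 15.2 CPM (SD, n = 3 each), which gave 0.87 as the log2 fold change (SE 0.289, 95% interval 0.17 to 1.56, edgeR adjusted p = 0.246), and 0.56 without MSC-TPr 2. In the set of 4, Fosl1 rose by 1.17 (SE 0.202, edgeR adjusted p = 0.00601), the one member called upward. Of its 2033 bp of exons, 1163 bp overlap Ccdc85b on the opposite strand. Since the strand setting of the counting is not given in the sources used here, reads there may be shared. Ccdc85b was at 28.8, 17.4 and 14.6 CPM for Ctl MSC versus 17.5, 22.7 and 26.2 CPM for MSC-TPr. Unlike Fosl1, it was highest in Ctl MSC 1, but in the set of 4 it was higher in MSC-TPr, as Fosl1 was. The part of shared reads was not tested.

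Fosl2 (ENSMUSG00000029135.10, chromosome 5, 32135801 to 32157842, plus strand) encodes Fra-2, which acts in mesenchymal lineages including bone and cartilage. Its level was 332, 228 and 211 CPM for Ctl MSC versus 91.7, 137 and 195 CPM for MSC-TPr. Every MSC-TPr library lay below every Ctl MSC library, but MSC-TPr 3 came close to Ctl MSC 3. The log2 fold change was -0.87 (SE 0.319, 95% interval -1.63 to -0.10, edgeR adjusted p = 0.282). Here the gap was wide between the libraries numbered 1, at -1.86, and small between those numbered 2 and 3, at -0.43, the opposite of Fos and Fosl1. The 4 libraries gave -0.40 (SE 0.185, edgeR adjusted p = 0.123). With the division level of each library as a covariate, Fosl2 was the single member called (log2 fold change -1.12, edgeR adjusted p = 0.00696), where 12.2% of all genes were (4.77% higher, 7.42% lower).

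**Figure D2:**
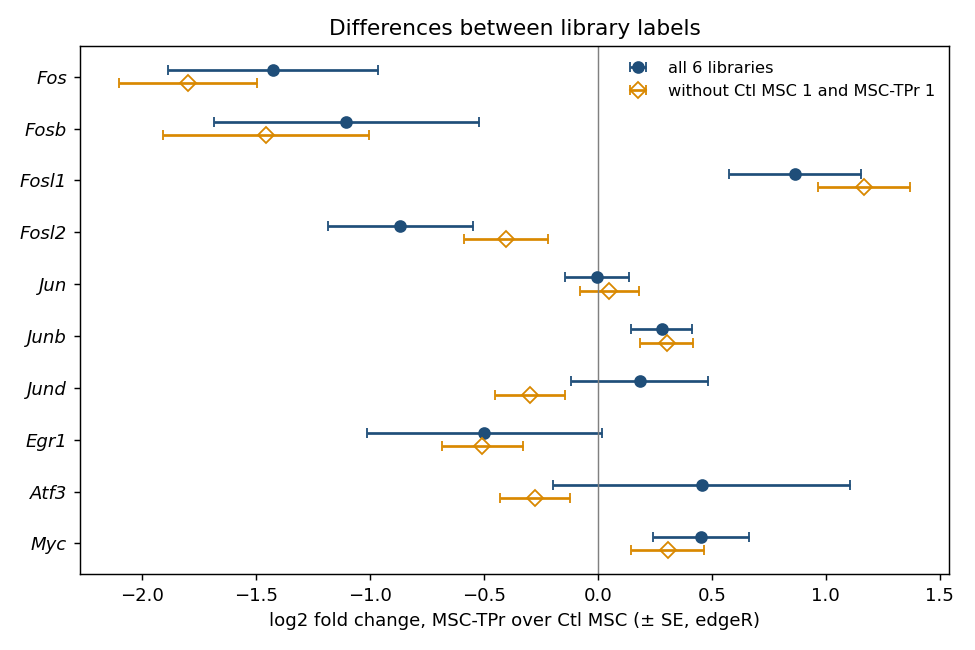
The log2 fold change of each member, MSC-TPr over Ctl MSC (edgeR, bars ± SE), is plotted over all 6 libraries (filled) and without Ctl MSC 1 and MSC-TPr 1 (open). Fos and Fosb lie left of 0 and Fosl1 right of it in both sets, while Jund moves from 0.18 to -0.30 and Atf3 from 0.46 to -0.28.

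Jun and Junb varied little between libraries, while Jund varied more. Jun (ENSMUSG00000052684.4, chromosome 4, 95049034 to 95052222, minus strand), the founding subunit and target of the JNK kinases, was at 78.5, 82.7 and 72.6 CPM for Ctl MSC versus 72.6, 85.2 and 75.3 CPM for MSC-TPr. The groups overlapped entirely, and the log2 fold change, -0.0044 (SE 0.141, edgeR adjusted p = 0.992), had a 95% interval of -0.34 to 0.33, and was 0.05 over the 4 libraries. Junb (ENSMUSG00000052837.6, chromosome 8, 84974484 to 84978718, minus strand), which often restrains Jun-driven proliferation, was at 48.5, 50.6 and 50.9 CPM for Ctl MSC versus 57.2, 65.7 and 59.3 CPM for MSC-TPr. All MSC-TPr libraries were higher, yet the difference was small, the log2 fold change being 0.28 (SE 0.135, 95% interval -0.04 to 0.60, edgeR adjusted p = 0.388), and 0.24 and 0.30 between the libraries numbered 1 and those numbered 2 and 3. Prdx2, on the opposite strand, overlaps 173 bp of Junb exons, and was itself at 122 to 180 CPM for Ctl MSC versus 149 to 191 CPM for MSC-TPr.

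Jund (ENSMUSG00000071076.6, chromosome 8, 70698949 to 70700616, plus strand) is the constitutive Jun, common in resting cells. It was at 63.4, 102 and 99.2 CPM for Ctl MSC versus 137, 70.6 and 92.4 CPM for MSC-TPr. MSC-TPr 1 was highest and Ctl MSC 1 lowest, so the groups overlapped and the libraries numbered 1 differed by 1.11 on the log2 scale while those numbered 2 and 3 differed by -0.31. The log2 fold change of 0.18 over 6 libraries (SE 0.301, edgeR adjusted p = 0.821) turned to -0.30 when 4 were used (SE 0.153, edgeR adjusted p = 0.158). Jun and Jund exons also overlap unlisted opposite-strand transcripts, Junos over 232 bp and Gm11175 over 877 bp, so their counts are uncertain to that extent.

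Atf3 (ENSMUSG00000026628.13, chromosome 1, 191170296 to 191218039, minus strand), a stress-induced ATF protein that pairs with Jun proteins, varied most of the 10. Its level was 26.6, 168 and 181 CPM for Ctl MSC versus 227, 162 and 125 CPM for MSC-TPr, an 8.54-fold range. Ctl MSC 1 alone stood far below the rest, and the 3 libraries with high cell division genes, Ctl MSC 1, MSC-TPr 2 and MSC-TPr 3, were each below the other three, as was also the case for Jund. The part of division level in this was not tested. The log2 fold change of 0.46 (SE 0.652, 95% interval -1.11 to 2.02, edgeR adjusted p = 0.793) became -0.02 without Ctl MSC 1 and -0.28 over the 4 libraries (SE 0.153, edgeR adjusted p = 0.185). With the division level of each library as a covariate it was 1.38 (edgeR adjusted p = 0.067). Between the libraries numbered 1 the difference was 3.09, the widest of any member, against -0.29 between those numbered 2 and 3.

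Egr1 (ENSMUSG00000038418.7, chromosome 18, 34859823 to 34864984, plus strand), the zinc finger factor induced by serum, adhesion and shear, was at 73.6, 234 and 168 CPM for Ctl MSC versus 54.4, 146 and 137 CPM for MSC-TPr. The libraries numbered 1 were the lowest of each label, and the groups overlapped. The difference was -0.44 between the libraries numbered 1 and -0.49 between the means of those numbered 2 and 3, although it is not known whether the numbers pair the samples. The value over 6 libraries rested on single libraries, at -0.11 without Ctl MSC 2, -0.16 without MSC-TPr 1 and -0.84 without Ctl MSC 1. Neither the 6 libraries (log2 fold change -0.50, SE 0.514, edgeR adjusted p = 0.701) nor the 4 (-0.51, SE 0.176, edgeR adjusted p = 0.0583) gave a call with edgeR, whereas DESeq2 over the 4 did, with an adjusted p of 0.0287.

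Myc (ENSMUSG00000022346.15, chromosome 15, 61985391 to 61990374, plus strand), the growth regulator whose mRNA is among the shortest-lived, was at 159, 239 and 224 CPM for Ctl MSC versus 279, 325 and 247 CPM for MSC-TPr. All MSC-TPr libraries were above all Ctl MSC libraries, MSC-TPr 3 only just above Ctl MSC 2. The means were 207 ± 42.8 and 284 ± 39.3 CPM (SD, n = 3 each), and the log2 fold change of 0.45 (SE 0.209, 95% interval -0.05 to 0.95) had an edgeR adjusted p of 0.374. Over the 4 libraries it was 0.31 (SE 0.160, edgeR adjusted p = 0.162).

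**Figure D3:**
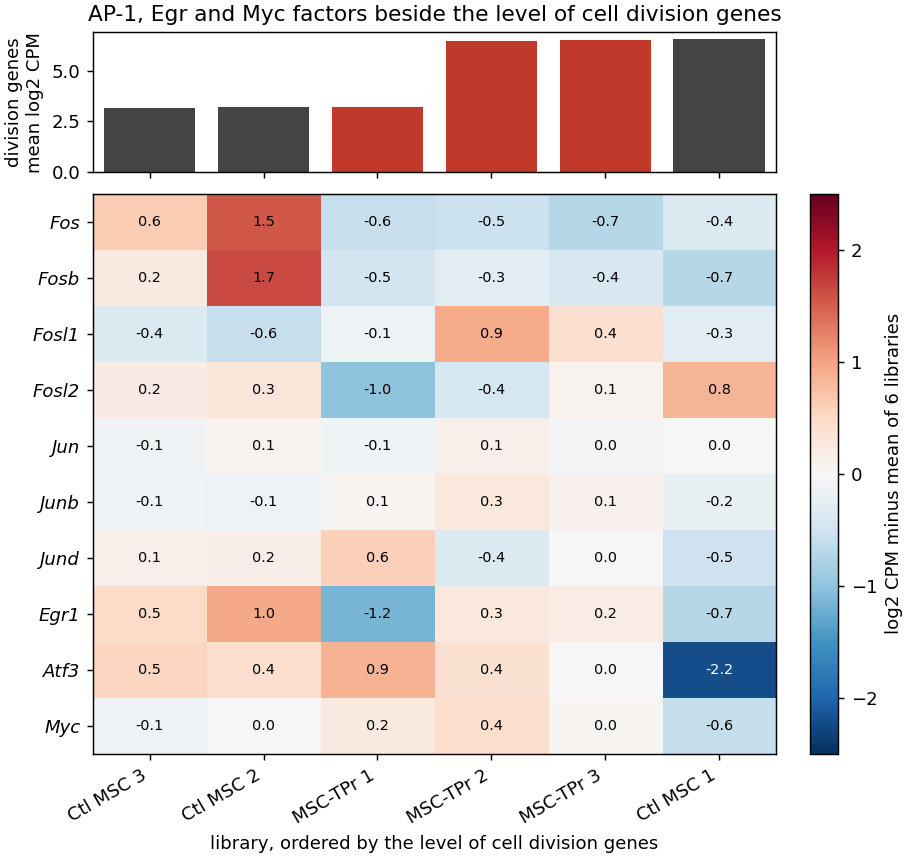
The upper bars give the log2 CPM averaged over 20 cell division genes and the lower map the log2 CPM of each member minus its mean over the 6 libraries, with libraries ordered by the division level. Fos and Fosb stand out at 1.5 and 1.7 in Ctl MSC 2, Atf3 at -2.2 in Ctl MSC 1, and Egr1 is lowest in MSC-TPr 1.

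Compared per kilobase of exon, the scale on which different genes can be set side by side, Myc was the most abundant of the 10 mRNAs, with a median of 89.5 CPM per kb over the 6 libraries (58.4 to 120), followed by Atf3 at 76.4 (12.3 to 105) and Jund at 57.4 (38.0 to 82.3). Egr1 at 31.6 (12.1 to 52.3), Jun at 24.1 (22.8 to 26.7), Junb at 23.5 (21.1 to 28.6) and Fosl2 at 21.0 (9.47 to 34.3) came next. Fosl1 at 13.0 (9.93 to 28.5), Fos at 5.49 (4.58 to 22.0) and Fosb at 1.01 (0.765 to 4.05) were the lowest. The ranges of neighbours in this order overlapped in every case except Fos and Fosb. Jun and Fosl2 change places when the longest transcript replaces the union of exons: the medians are then 31.1 CPM per kb for Fosl2, 29.9 for Junb and 24.1 for Jun.

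Members differed widely in how much replicate libraries of a label scattered. The within-group SD of log2 CPM was 1.15 for Atf3, above that of 94.7% of all genes tested, 0.849 for Fosb, 0.829 for Egr1 and 0.674 for Fos. At the other end it was 0.0782 for Junb, above just 1.97% of genes, and 0.109 for Jun. The median gene had 0.323, and 7 of the 10 members exceeded it. Atf3, Fosb, Egr1 and Fos thus scattered most between libraries of 1 label, and Junb and Jun least.

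Because dimer choice depends on the mixture, the share of each member in the summed length-scaled level of its family was compared. Fosl1 made up 23.2, 16.7 and 24.8% of Fos-family mRNA in Ctl MSC and 46.7, 58.4 and 43.5% in MSC-TPr. Every MSC-TPr library exceeded every Ctl MSC library, and the means were 21.6 ± 4.31 and 49.5 ± 7.82% (SD, n = 3 each). This difference of 27.9 percentage points had an exact two-sided permutation p of 0.1, the smallest that 3 against 3 libraries can give, and an adjusted p of 0.467 over the 7 family shares. It was 13.9 points with no length scaling and 25.6 with the longest transcript length. Leaving out 1 library gave 23.5 to 31.0 points, but there the sign could not change, because the groups do not overlap. A share also rises when another member of the family falls. In the libraries numbered 1, Fosl1 itself hardly differed, at 12.4 CPM per kb in Ctl MSC 1 and 13.5 in MSC-TPr 1. Fosl2 was at 34.3 and 9.47 CPM per kb in the same libraries.

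The shares of the other Fos genes were lower on average in MSC-TPr. Fosl2 was at 64.4, 39.6 and 46.8% in Ctl MSC and 32.7, 29.0 and 44.3% in MSC-TPr, a difference of -14.9 points (exact permutation p = 0.2, adjusted 0.467). Fos was at 11.0, 36.9 and 25.2% against 17.4, 10.5 and 10.1% (difference -11.7 points, exact permutation p = 0.2, adjusted 0.467), and Fosb held 1.43 to 6.80% in Ctl MSC and 2.12 to 3.15% in MSC-TPr. In each of these the groups overlapped. The Fos difference was -5.41 points without Ctl MSC 2 and -3.71 with no length scaling, and the Fosl2 difference was -7.88 points without Ctl MSC 1. Ctl MSC 1 had the smallest Fos and the largest Fosl2 share among the Ctl MSC libraries. The summed Fos family itself was at 53.3, 59.5 and 46.6 CPM per kb in Ctl MSC and 29.0, 48.8 and 45.5 in MSC-TPr (exact permutation p = 0.2).

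In the Jun family Jund was the largest member throughout. It held 45.4, 56.0 and 57.0% in Ctl MSC and 63.4, 43.4 and 52.9% in MSC-TPr. Jun held 29.4, 23.8 and 21.8% against 17.5, 27.4 and 22.6%, and Junb 25.2, 20.2 and 21.2% against 19.1, 29.3 and 24.6%. Jun was thus above Junb in each Ctl MSC library and below it in each MSC-TPr library. Which of them is higher depends on the gene lengths, but the ratio of Junb to Jun in CPM does not: it was 0.618, 0.611 and 0.701 against 0.788, 0.772 and 0.787, higher in every MSC-TPr library, a ratio chosen after the shares were seen and given with no test. Differences between the labels were -2.53 points for Jun (exact permutation p = 0.5), 2.14 for Junb (exact permutation p = 0.7) and 0.393 for Jund (exact permutation p = 1.0), and those of Jun and Jund changed sign without Ctl MSC 1 and MSC-TPr 1. The summed Jun family was at 83.7, 109 and 104 CPM per kb in Ctl MSC and 130, 97.6 and 105 in MSC-TPr (exact permutation p = 0.5).

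**Figure D4:**
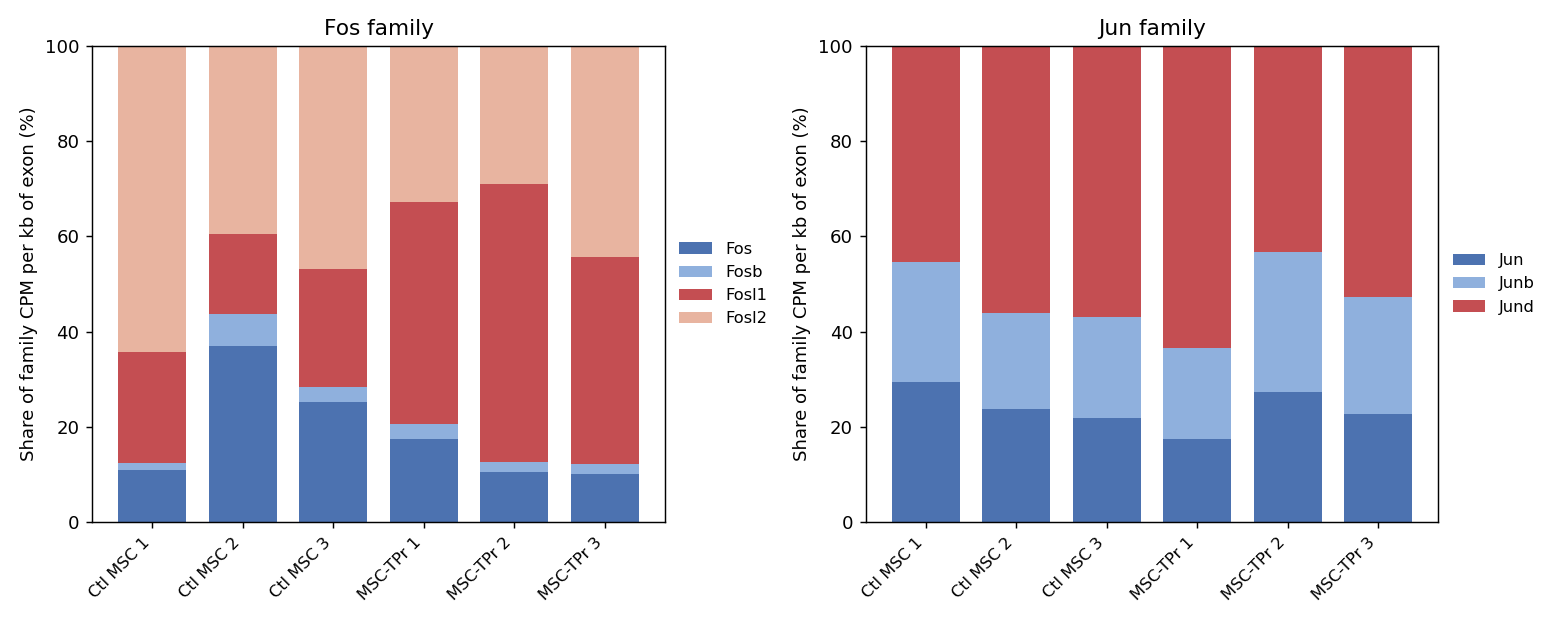
Stacked bars give each member's share, in percent, of the summed CPM per kb of exon of the Fos family (left) and the Jun family (right) in each library. The Fosl1 segment covers 16.7 to 24.8% in the Ctl MSC libraries and 43.5 to 58.4% in the MSC-TPr libraries, while Jund is the largest Jun segment throughout.

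The genes whose pattern over the 6 libraries was most like that of a member were found by the mean absolute difference of centred log2 CPM. For Fos these were Cp (0.164), 6720401G13Rik (0.198) and Soat2 (0.221), and the nearest other member was Fosb (0.264). Fosb was likewise nearest to Fos among the members, behind 4930565N06Rik (0.249) and close to Dennd6b (0.264). Fosl1 was followed most closely by Ttc9 (0.0469), Gm14005 (0.0631) and Dbc1 (0.0882), and Fosl2 by Epha1 (0.0718), A830082N09Rik (0.0875) and Foxc1 (0.0972). Atf3 was nearest to Lpar4 (0.128), at 10.4, 60.6 and 53.1 CPM for Ctl MSC versus 91.4, 53.6 and 46.3 CPM for MSC-TPr, then Mertk (0.131) and Bmpr1b (0.153). For Egr1 the nearest were Fam84b (0.177), Vit (0.182) and Prune2 (0.234). Jun lay near Tor1b (0.0259), Mtpap and Ddx46, Junb near Setd8 (0.0271), Sgms2 and Pitpnb, Jund near Baz2a (0.0407), Clip3 and Lrrc28, and Myc near Ahcyl2 (0.0416), Eaf1 and Ctage5. This likeness over 6 libraries is a description.

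Around the members, no gene of the 8 pathway lists, and none of the 20 cell division genes, passed the test over the 6 libraries, where 0.426% of all genes did. Of the 162 tested genes of the 8 pathway lists, without the cell division genes, 25 had an unadjusted edgeR p under 0.05, beside 15.0% of all genes. DESeq2 called 11 of 176 list genes (6.25%), beside 4.06% of all genes. Among the 18 AP-1 dimer partners and relatives tested, 2 were higher (Atf2 and Mafk) and 4 lower (Crem, Maf and Bach2 among them) without overlap. Together they made up 33.3% of the list, beside 22.6% of all genes. Maf, a large Maf protein that binds an extended AP-1 element, was at 76.2, 44.7 and 41.8 CPM for Ctl MSC versus 20.0, 10.9 and 17.2 CPM for MSC-TPr. The groups were well apart, and the log2 fold change was -1.76 (SE 0.334, edgeR adjusted p = 0.0951). Bach2, a repressor of Maf-type elements, was at 3.44, 7.90 and 8.33 against 2.49, 1.66 and 2.92 CPM (log2 fold change -1.47, edgeR adjusted p = 0.203), and Crem, a cAMP-responsive modulator, at 10.0, 10.4 and 10.2 against 6.09, 6.74 and 5.71 CPM (-0.73, edgeR adjusted p = 0.183). Over the 4 libraries 9 of the 18 fell and none rose, beside 19.4% of all genes falling. Label and division level cannot be told apart in those 4 libraries.

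Of 28 other immediate early genes tested, 4 were higher (Ier5, Klf6, Zfp36l2 and Btg1) and 3 lower (Zfp36, Id2 and Id3) without overlap, with a median log2 fold change of 0.09. This share of 25.0% was near the 22.6% of all genes that were separated. Zfp36l2, an mRNA-destabilizing protein, was at 215, 199 and 194 CPM for Ctl MSC versus 251, 329 and 386 CPM for MSC-TPr (log2 fold change 0.67, edgeR adjusted p = 0.205). Id3, an inhibitor of helix-loop-helix factors, was at 81.7, 31.1 and 33.3 CPM against 8.30, 17.7 and 27.0 CPM (-1.46, edgeR adjusted p = 0.285). Both lists of values separated the labels, though MSC-TPr 3 came near the Ctl MSC libraries for Id3. Over the 4 libraries 13 of 29 rose and 2 fell, Klf4 and Gadd45a, beside 20.6% of all genes rising. Egr2, a relative of Egr1 singled out after its values were seen, had a log2 fold change of 2.14 there (edgeR adjusted p = 0.0127). It was at 0.725, 1.87 and 0.552 CPM for Ctl MSC versus 1.22, 5.09 and 5.61 CPM for MSC-TPr, highest in MSC-TPr 2 and 3. The division level of the libraries moves with these 4-library values, and its part was not tested.

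The inputs to the early response were mixed. Among 23 MAPK, SRF and JNK genes tested, 4 were higher without overlap (Rps6ka3, Map2k4 and Mapk14 among them) and 3 lower (Mapk3, Map2k2 and Map3k7), the median being -0.10. The separated genes were 30.4% of this list, beside 22.6% of all genes. Rps6ka3, the kinase RSK2 that acts below ERK, was at 46.3, 41.0 and 44.4 CPM for Ctl MSC versus 56.9, 71.2 and 66.6 CPM for MSC-TPr (log2 fold change 0.56, SE 0.151, edgeR adjusted p = 0.184). Mapk3, the kinase ERK1, was at 126, 103 and 116 against 91.8, 73.8 and 80.6 CPM (-0.49, edgeR adjusted p = 0.233). Both separated the labels in the libraries numbered 1 as well as in the rest. In the set of 4 libraries 2 of the 23 genes rose, Rps6ka3 among them, and 4 fell, where 40.0% of all genes were called.

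Of 17 feedback inhibitors tested, 3 were higher (Dusp8, Dusp16 and Spred1) and 1 lower (Dusp14) without overlap, with a median of 0.31. This share of 23.5% was near the 22.6% of all genes. Dusp8, a phosphatase that acts on JNK and p38 kinases, was at 4.59, 6.68 and 7.23 CPM for Ctl MSC versus 12.8, 12.5 and 15.5 CPM for MSC-TPr, each MSC-TPr library above all Ctl MSC libraries (log2 fold change 1.14, SE 0.248, edgeR adjusted p = 0.127). Without the libraries numbered 1, 6 of the 17 rose and 2 fell, where 40.0% of all genes were called (20.6% higher, 19.4% lower). Among the 16 genes of the Myc network tested, Max, Ruvbl1 and Ruvbl2 were higher and Zbtb17 lower without overlap, the median being -0.09. That was 25.0% of the network genes, near the 22.6% of all genes. Max, the obligate partner of Myc, was at 48.2, 46.4 and 46.2 against 55.5, 59.6 and 54.1 CPM, a small shift that did not pass the test (log2 fold change 0.26, edgeR adjusted p = 0.400).

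Of 30 Myc-associated targets tested, mostly genes of ribosome production, 8 were higher and 1, Cdk4, lower without overlap, and the median was 0.42. Polr1b, a subunit of RNA polymerase I, was at 57.6, 48.2 and 48.4 CPM for Ctl MSC versus 74.4, 125 and 92.2 CPM for MSC-TPr (log2 fold change 0.92, SE 0.221, edgeR adjusted p = 0.157), and Nop56, a box C/D nucleolar protein, at 250, 204 and 200 against 293, 497 and 363 CPM (0.82, edgeR adjusted p = 0.200). MSC-TPr 2 was highest for both, as for Myc, but the other libraries were ordered otherwise. Among the Ctl MSC libraries, Ctl MSC 1 was highest for both and lowest for Myc. Of the 30, 15 rose and none fell over the 4 libraries, beside 20.6% of all genes rising and 19.4% falling, and all 20 cell division genes rose in the same 4 libraries, whose part in this was not tested.

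Of 22 AP-1-associated targets tested, Hmox1, the heme-degrading enzyme, was the one that separated the labels, at 577, 664 and 683 CPM for Ctl MSC versus 1070, 1500 and 909 CPM for MSC-TPr (log2 fold change 0.85, edgeR adjusted p = 0.184). The median of this list was 0.62, and 4.55% of it was separated, beside 22.6% of all genes. Over the 4 libraries 16 of the 22 rose and none fell, with a median of 1.52, beside 20.6% of all genes rising and 19.4% falling, but Vim, an intermediate filament gene chosen after its values were seen, did not follow the labels over all 6: it was at 3680 CPM in Ctl MSC 1, 4380 in MSC-TPr 2 and 4260 in MSC-TPr 3, and at 992, 1090 and 1110 in MSC-TPr 1, Ctl MSC 2 and Ctl MSC 3. These are the libraries with high and low cell division genes, and the part of division level was not tested. None of the 13 Egr1-associated targets tested separated the labels (median 0.05), beside 22.6% of all genes. Over the 4 libraries 5 of the 13 rose and 2 fell, beside 40.0% of all genes called. The 20 cell division genes, kept as a reference, had a median of 0.69 over 6 libraries with none separated, and all 20 rose over the 4 libraries with a median of 3.38.

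**Figure D5:**
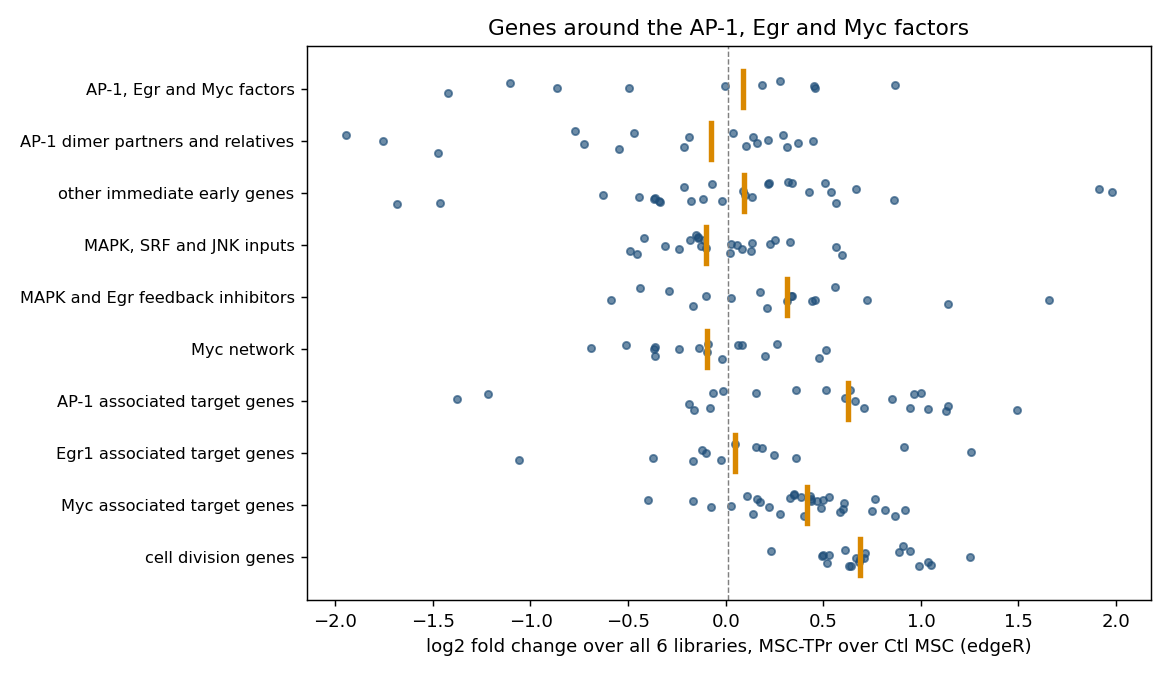
Each point is the log2 fold change of 1 gene over all 6 libraries (MSC-TPr over Ctl MSC, edgeR), by list, with orange bars at list medians and a dashed line at the median of all genes tested. The 10 factors spread from -1.42 to 0.87 around a median of 0.09, while the medians of the Myc-associated targets, the AP-1-associated targets and the cell division genes are 0.42, 0.62 and 0.69.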

How the data were processed

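RNA-seq libraries from 3 Ctl MSC and 3 MSC-TPr samples were made with a stranded mRNA kit. The values used are raw read counts per gene as deposited by the authors, who counted reads on mm10 with Htseq-count. The submitters' processing notes name CASAVA 1.8.2, Trimmomatic 0.35 and TopHat2 2.1.0, and the annotation and strand setting are not given in the sources used here. The 5 summary entries that name no gene (13.8 to 20.8% of listed reads) were left out.

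Counts were scaled by TMM, filtered with filterByExpr and tested with edgeR 4.0.16 (R 4.3.3) by label alone, with Benjamini-Hochberg adjustment, and DESeq2 1.42.0 was an alternative. The SE is the absolute log2 fold change divided by the root of the test's F, and intervals are at 95%. Lengths and coordinates came from GENCODE M21, and promoters from RefSeq. The members, lists and tests were chosen with earlier results of these data known. Named genes were the members, up to 4 per list with the widest fold change among those whose groups did not overlap, and the 3 nearest genes per member. Scripts were tested on simulated data. DESeq2 without Ctl MSC 1 and MSC-TPr 1 was added after seeing the data. Both symbol forms of Ctgf and Cyr61 were listed. No 2 libraries of the same label agreed within counting noise, and pairs across labels were not checked for this. Some genes that these rules name are not reported here.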

Additional observations from a re-analysis of the deposited data

How the results depend on the processing

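Against 51 genes called by edgeR over 6 libraries, requiring 10 counts in every library gave 31, DESeq2 683, the division covariate 1460, and leaving out both libraries numbered 1 gave 4854 (DESeq2 4565). Leaving out 1 library gave 0 to 108, 0 without Ctl MSC 2, Ctl MSC 3 or MSC-TPr 3 and 108 without Ctl MSC 1. For the members, 0 calls became 1 with the covariate (Fosl2), 3 without both libraries numbered 1 and 4 with DESeq2 on those 4 libraries, and 0 in every single-library omission. For the pathway lists 0 became 11 with DESeq2 (6.25% of list genes, beside 4.06% of all genes) and 24 with the covariate (14.8% beside 12.2%). With both libraries numbered 1 left out it became 82 with edgeR (50.3% beside 40.0%) and 81 with DESeq2 (46.3% beside 27.9%).

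A replicate block left 0 genes called by edgeR, though 776 had an unadjusted p under 0.05. Whether the numbers pair the samples is not known. The correlations of same-numbered deviations were -0.765, -0.593 and -0.603, and no library correlated best with its own number. These correlations cannot decide it, because the libraries numbered 1 stood apart within both labels, in opposite directions. Differently numbered pairs among the libraries numbered 2 and 3 gave similar values, -0.577 and -0.579.

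Jun, at -0.0044, was positive with no filter (0.0084), with DESeq2 (0.0072) and without both libraries numbered 1 (0.050, DESeq2 0.054), and from -0.071 to 0.044 in single-library omissions. Jund was -0.30 (DESeq2 -0.29) without both, 0.40 with the division covariate and -0.11 to 0.39 in omissions. Atf3 was -0.28 (DESeq2 -0.27) without both, 1.38 with the covariate and -0.020 to 0.82 in omissions. The share of Fosb differed by -2.51 to 0.169 points in omissions (positive without Ctl MSC 2), that of Junb by -0.327 to 4.74 (negative without MSC-TPr 2) and that of Jund by -4.69 to 5.30 (negative without Ctl MSC 1 or MSC-TPr 1) and by -8.37 without both, where Jun was at 2.14. The cause was not tested for any of these. In omissions Fos was -1.78 to -0.84, Fosb -1.50 to -0.20, Fosl1 0.56 to 1.10, Fosl2 -1.16 to -0.63, Egr1 -0.84 to -0.11 and Myc 0.30 to 0.57, the last lowest without Ctl MSC 1. The 7 members other than Jun, Jund and Atf3 kept their sign in all 15 alternatives, with edgeR or DESeq2 adjusted p from 3.28e-09 to 0.767 for Fos, 0.000674 to 0.953 for Fosb, 3.3e-06 to 0.801 for Fosl1, 0.00696 to 0.806 for Fosl2, 0.0775 to 0.858 for Junb, 0.0287 to 0.987 for Egr1 and 0.0765 to 0.816 for Myc, and 0.067 to 0.97 for Atf3, 0.0925 to 0.996 for Jund and 0.772 to 0.997 for Jun. For Fos, Fosl1, Fosl2, Junb and Myc, whose groups did not overlap, leaving out libraries could hardly change the sign, so the kept sign there is no separate evidence. Of the alternative member fold changes, 127 kept their direction and side of the threshold, 8 gained a call and 15 changed sign. With 3 libraries a label, differences within the replicate spread were not detectable, and single libraries decide several values.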
